A study of Mus musculus with 20 samples.

Results

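The comparison described here set thymic cells labelled as group 2 innate lymphoid cells (ILC2), from mice that received both sublethal irradiation and recombinant interleukin-25 (rIL-25), against cells with the same label from untreated mice. It was defined by treatment label alone and covered 3 libraries a side, 6 of the 20 libraries of the series. The irradiated and injected cells came from young wild-type (WT) female mice given 425 rad and an intra-thymic injection of 0.3 ug rIL-25, with the thymus taken after 3 days. The untreated cells came from age-matched WT females that received neither. Libraries of the same strain and sex that were only irradiated (425 rad, 3 days, n = 3) or only injected (0.3 ug rIL-25, 3 days, n = 3) served to place the values. No injection of vehicle was among the groups, so the cytokine and the injection itself cannot be told apart. The labels do not say whether replicates were separate animals or pools, so the p-values measure only the spread between these libraries.

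ILC2 are lymphocytes without a rearranged antigen receptor that live in tissues and react to the alarmins IL-25, IL-33 and TSLP through the receptors IL-17RB, ST2 (Il1rl1) and the TSLP receptor. Their lineage depends on GATA3, RORα and ID2, and on stimulation they secrete the type 2 cytokines IL-5 and IL-13. IL-25 is a product of tuft cells, which occur in the thymic medulla, and its receptor signals to NF-κB. In the thymus, radiation depletes dividing thymocytes, and the regrowth of the organ is supported by signals from stromal and innate lymphoid cells.

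The irradiated and injected libraries held 587533, 761463 and 1357518 counts, and the untreated libraries 639558, 696441 and 799814. Values are given as CPM, counts relative to the size of each library after scaling between libraries. Log2 CPM correlated at 0.922 to 0.945 between replicates of irradiated and injected cells and at 0.932 to 0.954 between untreated replicates, across genes. On the first principal component the irradiated and injected libraries lay at 38.2, 18.8 and 41.1, against -13.6, -28.5 and -18.8 for untreated ones, so replicate 2 of the treated cells lay nearest to the untreated libraries. One further library stood apart: replicate 3 of the cells that were only injected carried 362 CPM of the class II gene H2-Aa, against 5.45 and 11.5 CPM in its fellow replicates. It enters the main comparison through the count filter, the scaling and the shared estimate of the spread. The comparison with only injected cells and the interaction use it directly.

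The label ILC2 was compared with 13 marker genes. Gata3, the master regulator of type 2 lymphocytes, stood at 247, 190 and 232 CPM in irradiated and injected cells and at 194, 237 and 200 CPM in untreated cells. Il17rb, the IL-25 receptor subunit, stood at 243, 159 and 194 CPM against 201, 197 and 209 CPM. Neither gene passed the test (log2 change 0.08 with adjusted p = 0.842, and -0.03 with adjusted p = 0.95), and the groups overlapped for both. Il1rl1, Il13, Arg1, Klrg1 and Il5, the markers of mature and activated ILC2, were at 3.63 CPM or less in every untreated library. Gata3, Il17rb, Il2ra and Thy1 were each at 194 CPM or more in every untreated library. Id2, which all innate lymphoid cells need, was at 33.4, 11.2 and 53.2 CPM in the untreated libraries, where Dntt, a gene of early lymphoid cells and thymocytes, was at 2370, 2029 and 2061 CPM and Cpa3 at 249, 291 and 353 CPM. The label ILC2 is therefore in doubt for the untreated libraries. It is not settled for the irradiated and injected libraries either. T cell and thymocyte markers (18 genes in the table) summed to 5454 to 5912 CPM in them, against 4958 to 5873 CPM in untreated libraries. These sums do not show an unchanged level, since Dntt was called lower and 5 other members were called higher. Each fold below is a difference between libraries with that label, whose cell makeup may differ. The summed level of the ILC2 markers was 3708 to 5021 CPM in only irradiated cells and 2395 to 2762 CPM in only injected cells. It was 3606 to 4523 CPM in irradiated and injected cells and 2085 to 2658 CPM in untreated cells. Thy1, a surface protein of thymic lymphocytes, made up 2088, 2300 and 2883 CPM of it against 1443, 1817 and 1188 CPM. Its edgeR call was lost without treated replicate 3 or untreated replicate 1 or 3 (highest adjusted p 0.172). It was also lost with only the 2 groups compared in the fit (adjusted p = 0.0564). In such bulk libraries, fewer cells of a type and less RNA per cell cannot be told apart, and this holds for every gene below.

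Of 7482 genes tested, 668 (8.93%) differed between irradiated and injected cells and untreated cells at an adjusted p under 0.05 (edgeR quasi-likelihood test, Benjamini-Hochberg). 316 (4.22%) were higher and 352 (4.7%) were lower. Among them, 198 rose and 284 fell by at least 2-fold, and 87 rose and 55 fell by at least 4-fold. The 3 treated libraries lay wholly above the 3 untreated ones for 305 of the 316, and wholly below for 328 of the 352, where 13.5% of all genes tested were separated in each direction. With 1 library left out, between 271 and 896 genes were called. The count was 271 without replicate 3 of the treated cells, 357 without replicate 2 and 424 without replicate 3 of the untreated cells, and 197 genes were called in all 6 such fits. A gene near 0 in 1 group passed the count filter through a group where it was high, so the counts and medians of the lists below describe their tested members only. Each count of called members stands beside 4.22% called higher and 4.7% called lower over all genes tested.

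The called genes were then placed against the cells that received 1 treatment only, which shared libraries with the main comparison. For the 316 higher genes the median log2 change was 1.22 against untreated, 0.44 against only irradiated and 1.08 against only injected cells. Against irradiated cells 2.51% of all genes tested were called. 23 of the higher genes were also called higher than in irradiated cells (0.642% of all genes tested were) and 244 higher than in injected cells (6.51% of all genes tested). For the 352 lower genes the medians were -1.37, -0.71 and -1.43, and 56 and 292 of them were called lower in the same 2 comparisons (1.87% and 8.75% of all genes tested). Over all genes tested the medians were between -0.01 and 0. The interaction of irradiation and rIL-25 was called for 2.07% of all genes tested, 0.361% with a positive and 1.71% with a negative term.

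Of 12 type 2 effector genes in the table, 5 passed the count filter, and these, Il13, Arg1, Calca, Lif and Furin, were called higher (4.22% of all genes tested were). Their median log2 change was 4.23, against -0.01 over all genes. Il13 and Arg1 were near 0 in untreated cells and passed the filter through other groups, so neither the count nor the median supports a change of the list. Il13 (chromosome 11, 53631323 to 53634702, GRCm38.p6), the cytokine that drives mucus production and alternative macrophage activation, had 54.1, 125 and 305 CPM in irradiated and injected cells, against 3.04, 0 and 3.63 CPM in untreated cells. The groups did not overlap, and the treated replicates themselves spread over more than the whole untreated range. Arg1, the arginine-degrading enzyme of activated ILC2, had 72.7, 36 and 145 CPM against 0, 0 and 2.42 CPM. Its ratio of counts was 110 (95% exact interval 30.1 to 912, counting error only), from 271 counts in treated and 2 in untreated cells. Furin, a protease that matures cytokine and growth factor precursors, had 82.8, 51.3 and 83.9 CPM against 13.7, 12.6 and 10.9 CPM (log2 change 2.55 ± 0.41 SE, adjusted p = 0.000542). Lif, an IL-6 family cytokine, had 16.9, 38.8 and 36.6 CPM against 10.6, 4.21 and 8.47 CPM, and its call was lost without treated replicate 3 or without untreated replicate 2 (highest adjusted p 0.081). Without either library 3 of the 5 members were called.

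The other 7 effectors in the table were below the count filter. Il5, the eosinophil growth factor, had 5, 7 and 61 counts in irradiated and injected cells and 0, 1 and 0 counts in untreated cells, a ratio of 59.2 (95% exact interval 10.3 to 2370). Areg, a growth factor for epithelium, had 5, 1 and 52 counts against 0, 0 and 1. For both genes replicate 3 of the treated cells, the deepest library, held most of the counts. Il4 had 1, 5 and 9 counts against none in 3 untreated libraries, at least 4.05-fold higher (against a floor of 3 counts over the group). Csf2, which encodes GM-CSF, had 5, 5 and 18 counts and Ccl1, a ligand of CCR8, had 8, 6 and 17, again with none in untreated cells. Penk, the enkephalin precursor, had 1, 27 and 17 counts against 0, 0 and 1, and Tph1, an enzyme of serotonin synthesis, had 3, 0 and 8 counts against none. In a fit with no count filter Tph1 was not called (adjusted p = 0.142), and the other 6 were called higher, with adjusted p-values of 0.00834 for Il5, 0.0152 for Areg, 0.0481 for Il4, 0.0089 for Csf2, 0.00261 for Ccl1 and 0.012 for Penk.

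**Figure D1:**
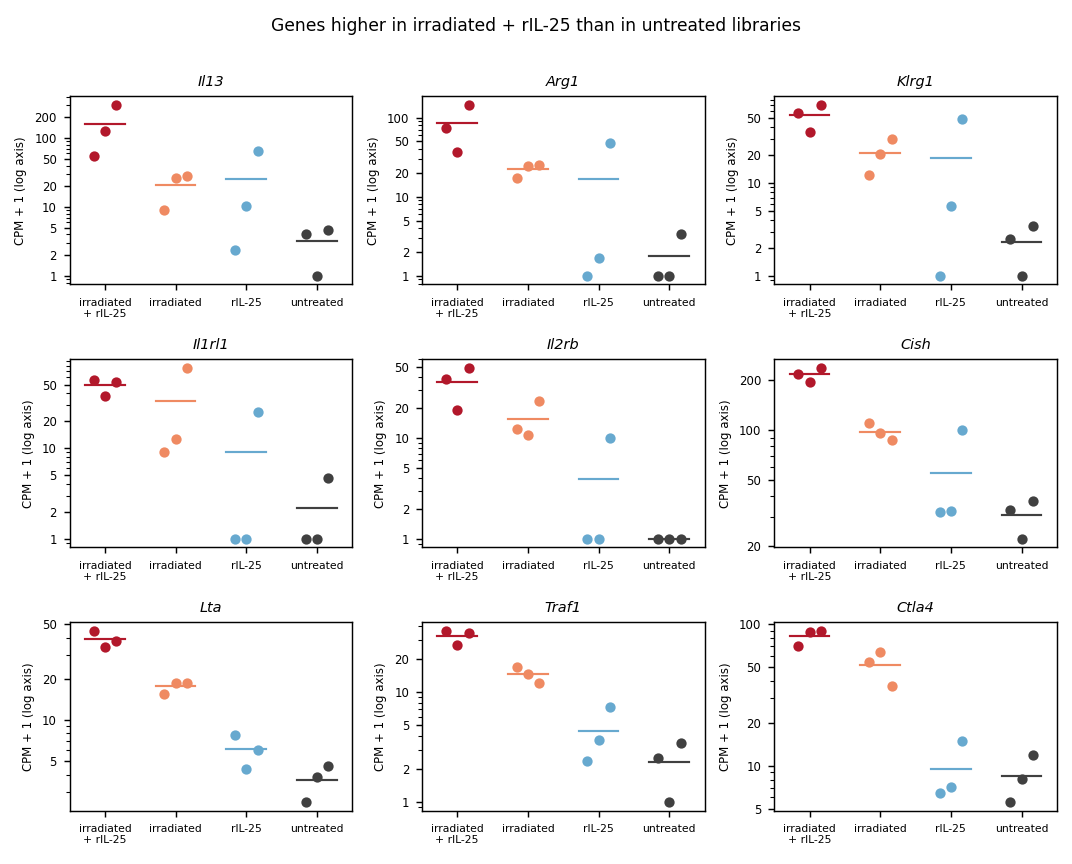
CPM plus 1 (log axis) of 9 genes in each library of the 4 groups; points are libraries and bars are group means. For each gene the 3 irradiated and injected libraries lie above the 3 untreated ones, and in the cells that were only injected replicate 3 is the highest for every gene shown except Lta.

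Transcription factors of the lineage moved in both directions. Of 15 tested, Id2, Tcf7 and Ikzf3 were higher and Runx1 and Myb lower (4.22% and 4.7% of all genes tested were), with a list median of 0.08. Id2, the inhibitor of E proteins that all innate lymphoid cells need, had 556, 378 and 404 CPM in irradiated and injected cells, against 33.4, 11.2 and 53.2 CPM in untreated cells (log2 change 3.74 ± 0.44 SE, adjusted p = 2.26e-05). Tcf7, which encodes TCF-1, had 853, 259 and 300 CPM against 132, 119 and 143 CPM. Its first treated replicate was far above the other 2, and the lowest treated library was still above the highest untreated one. Ikzf3, the Ikaros family member Aiolos, had 30.4, 8.31 and 50.2 CPM against 0, 1.40 and 1.21 CPM. Myb, a factor of dividing progenitors, had 243, 267 and 228 CPM against 427, 601 and 419 CPM (log2 change -0.97 ± 0.20 SE, adjusted p = 0.00411). These 4 calls held in every fit with 1 library left out.

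Among 13 tested alarmin and surface receptors, 6 were higher and 1 lower (4.22% and 4.7% of all genes tested were). The list median was -0.01, the same with Ramp3 at its lower bound. None of the 13 was called by edgeR, DESeq2 or limma voom against cells that were only irradiated. There 3 had an unadjusted edgeR p under 0.05. Klrg1, an inhibitory receptor of mature ILC2, had 55.8, 34.6 and 69.5 CPM in irradiated and injected cells, against 1.52, 0 and 2.42 CPM in untreated cells, a count ratio of 41.9 (95% exact interval 14.1 to 205). Il1rl1, the IL-33 receptor, had 55.8, 36 and 52.3 CPM against 0, 0 and 3.63 CPM, and DESeq2 gave it an adjusted p of 0.0878 where edgeR gave 0.00771. Ramp3, the co-receptor that turns the calcitonin receptor-like receptor towards adrenomedullin, had 8.45, 16.6 and 31.5 CPM against no count in any untreated library, at least 16.5-fold higher. Its call was lost without treated replicate 2 or 3, fits in which it was not among the genes tested. Kit, the stem cell factor receptor, was the lower member, with 22, 29.1 and 29.4 CPM against 62.3, 75.9 and 111 CPM (log2 change -1.61 ± 0.30 SE, adjusted p = 0.00184). Without untreated replicate 1 or 3, 3 members were called higher, and without treated replicate 3, 2 were.

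The IL-2 and IL-7 receptor and STAT list had 5 higher members of 18 tested (4.22% of all genes tested were higher). Its median was 0.18, the same with Il2rb at its lower bound. The higher members were the receptor chains Il2rb and Il2rg and the feedback inhibitors Cish, Socs1 and Socs2. The Socs2 call was lost in each of the 6 fits with 1 library left out. Il2rb, the chain shared by the IL-2 and IL-15 receptors, had 37.2, 18 and 48.7 CPM in irradiated and injected cells and no count in untreated cells, at least 27.8-fold higher. Cish, which is induced by STAT5 and restrains the same receptors, had 218, 194 and 238 CPM against 31.9, 21.1 and 36.3 CPM (log2 change 2.85 ± 0.34 SE, adjusted p = 2.26e-05). Its treated replicates were close together and all above 109, 95.9 and 86.9 CPM in cells that were only irradiated (log2 change 1.15 ± 0.31 SE, adjusted p = 0.0459). Socs1, another inhibitor of that family, had 223, 177 and 218 CPM against 117, 39.3 and 65.3 CPM. Il2rg, the common gamma chain, had 431, 353 and 521 CPM against 283, 326 and 261 CPM, and its call was lost without any 1 library other than treated replicate 2 (highest adjusted p 0.24) and with an offset for GC content (0.0572). The factors themselves, Stat5a and Stat5b, had log2 changes of -0.10 and -0.05 with adjusted p-values of 0.786 and 0.92. With library totals in place of scaling, or without any library but treated replicate 2, 3 members were called higher.

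RefSeq promoter sequences (GRCm38.p6, 250 bases before to 50 after each annotated start) were searched for 8 genes of the STAT and NF-κB lists that were called higher, and 6 genes were matched. The STAT-type motif TTCNNNGAA was sought on both strands, and 8.3% of the 32851 promoters of the table held it, 0.457% at least 2 times. Cish held 2 matches, side by side at its annotated start, and Il2rg and Socs1 held none in this window. The stretch from 150 bases before to 20 after the Cish start (chr9:107296509-107296678, plus strand) is shown because Cish rose most clearly among the inhibitors, with the matches in capitals.
Cish: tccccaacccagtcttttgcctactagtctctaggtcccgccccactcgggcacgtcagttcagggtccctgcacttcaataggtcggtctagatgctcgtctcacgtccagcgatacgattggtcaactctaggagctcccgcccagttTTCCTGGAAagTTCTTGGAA
A match describes these letters and does not show that a factor was bound.

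In the NF-κB list, 5 of 18 tested members were higher (4.22% of all genes tested were), with a median of 0.33. Without untreated replicate 3 or treated replicate 1, 3 members were called higher. Against cells that were only irradiated, none of the 18 was called by edgeR or DESeq2. There 5 had an unadjusted edgeR p under 0.05, and limma voom called 1. Traf1, a TNF receptor adaptor, had 35.5, 26.3 and 33.7 CPM in irradiated and injected cells, against 1.52, 0 and 2.42 CPM in untreated cells, a count ratio of 23.5 (95% exact interval 7.79 to 116). Relb, the transcription factor of the alternative pathway, had 43.9, 19.4 and 22.9 CPM against 4.56, 1.40 and 1.21 CPM (log2 change 3.52 ± 0.69 SE, adjusted p = 0.00252). Nfkb2, whose product is processed to the RelB partner p52, had 59.1, 74.8 and 71.0 CPM against 34.9, 28.1 and 31.5 CPM. None of these 3 genes overlapped between the groups, as for 305 of the 316 genes called higher and 13.5% of all genes tested. Nfkbia, the inhibitor IκBα, had 375, 222 and 214 CPM against 144, 132 and 99.2 CPM, and its call was lost without treated replicate 1 or untreated replicate 3 (highest adjusted p 0.0634). Rela and Nfkb1, subunits of the classical dimer, had log2 changes of -0.32 and 0.85 and did not pass the test (adjusted p = 0.44 and 0.192).

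The κB-type motif (GGG, any 2 bases, then TTTCC), sought on both strands, was in 1.63% of the 32851 promoters. It was present in Nfkbia and in each of the 3 annotated starts of Nfkb2, where the windows of starts 2 and 3 overlap and share the match, and it was not found in Traf1. The first start of Nfkb2 also held 1 TTCNNNGAA match. The same stretch, 150 bases before to 20 after the start, is given for Nfkbia (chr12:55492628-55492797, minus strand) and for the first 2 starts of Nfkb2 (chr19:46304587-46304756 and chr19:46305545-46305714, plus strand), since both genes rose and encode NF-κB proteins. Capitals mark matches to either motif.
Nfkbia: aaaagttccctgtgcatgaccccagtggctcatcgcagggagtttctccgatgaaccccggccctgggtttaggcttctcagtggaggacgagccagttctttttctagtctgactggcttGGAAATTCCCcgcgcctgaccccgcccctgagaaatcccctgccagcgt
Nfkb2, start 1: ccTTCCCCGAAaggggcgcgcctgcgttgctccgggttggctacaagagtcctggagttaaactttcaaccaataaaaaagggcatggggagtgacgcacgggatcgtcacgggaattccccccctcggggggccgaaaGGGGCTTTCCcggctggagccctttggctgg
Nfkb2, start 2: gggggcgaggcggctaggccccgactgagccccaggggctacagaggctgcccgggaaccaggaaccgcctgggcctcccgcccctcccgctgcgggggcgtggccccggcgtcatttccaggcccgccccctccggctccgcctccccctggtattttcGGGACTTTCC
In the Nfkbia line the capitals are the motif as read on the opposite strand.

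Lymphotoxin and TNF family genes gave 5 higher members of 10 tested (4.22% of all genes tested were higher), with a median of 1.74. None of the 10 was called by edgeR against cells that were only irradiated (2 at an unadjusted p under 0.05, 0 by DESeq2 and 0 by limma voom). Lta, the soluble lymphotoxin, had 43.9, 33.2 and 36.6 CPM in irradiated and injected cells, against 1.52, 2.81 and 3.63 CPM in untreated cells (log2 change 3.72 ± 0.47 SE, adjusted p = 4.23e-05). Ltb, the chain that anchors lymphotoxin to the membrane, had 534, 554 and 581 CPM against 152, 112 and 209 CPM. Treated replicates of Ltb lay within 47 CPM of each other and far above the untreated libraries. Receptors rose alongside the ligands. Tnfrsf18, which encodes GITR, had 154, 145 and 194 CPM against 33.4, 37.9 and 39.9 CPM, and Tnfrsf25, the TL1A receptor DR3, had 54.1, 52.6 and 64.5 CPM against 1.52, 7.02 and 6.05 CPM. These 4 calls held with each library left out in turn.

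Checkpoint and costimulatory receptors split. Of 5 tested, Ctla4, Pdcd1 and Cd2 were higher and Cd96 and Cd48 lower (4.22% and 4.7% of all genes tested were). Against cells that were only irradiated the median log2 change was -0.29. None of the 5 was called there by edgeR, DESeq2 or limma voom, with 2 at an unadjusted edgeR p under 0.05. Ctla4, an inhibitory receptor that competes with CD28, had 69.3, 87.3 and 88.9 CPM in irradiated and injected cells, against 4.56, 7.02 and 10.9 CPM in untreated cells (log2 change 3.40 ± 0.37 SE, adjusted p = 1.13e-05). Pdcd1, which encodes PD-1, had 91.2, 63.7 and 113 CPM against 22.8, 45.0 and 20.6 CPM, with an adjusted p of 0.0502 without treated replicate 3. Cd2, an adhesion receptor, had 201, 94.2 and 117 CPM against 18.2, 8.43 and 13.3 CPM. Cells that were only irradiated had as much Cd2, at 177, 176 and 299 CPM, while cells that were only injected had 0, 6.76 and 30.5 CPM. Cd96, a nectin receptor, had 30.4, 42.9 and 22.2 CPM against 77.5, 108 and 115 CPM (log2 change -1.70 ± 0.31 SE, adjusted p = 0.00153). Without treated replicate 3 the list had 2 higher and 1 lower members.

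Genes of tissue residency and egress gave 7 higher and 2 lower members of 15 tested (4.22% and 4.7% of all genes tested were), with a median of 0.92. Against cells that were only irradiated the median was -0.005. None of the 15 was called by edgeR there (4 at an unadjusted p under 0.05, 0 by DESeq2 and 0 by limma voom). The higher members included Ccr7, whose call was lost in 4 fits with 1 library left out. Itgae, the integrin CD103 that binds E-cadherin, had 43.9, 37.4 and 57.3 CPM in irradiated and injected cells, against 0, 0 and 6.05 CPM in untreated cells (log2 change 4.29 ± 0.80 SE, adjusted p = 0.00185). Itgb2, the beta chain of LFA-1, had 98.0, 112 and 166 CPM against 19.8, 19.7 and 29.0 CPM. In contrast to these integrin chains, Itga4, the VLA-4 alpha chain, had 171, 141 and 53.8 CPM against 277, 348 and 422 CPM. None of these 3 genes overlapped between the groups, and 13.5% of all genes tested were separated in each direction. Without untreated replicate 2, 4 members of the list were higher.

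Of 16 tested S100, annexin and galectin genes, 7 were higher (4.22% of all genes tested were), with a median of 0.91. S100a4, a calcium-binding protein of motile cells, had 157, 168 and 324 CPM in irradiated and injected cells, against 10.6, 2.81 and 15.7 CPM in untreated cells (log2 change 4.44 ± 0.55 SE, adjusted p = 3.61e-05). S100a6 had 155, 84.5 and 71.7 CPM against 21.3, 14 and 24.2 CPM. Capg, an actin capping protein, had 199, 219 and 276 CPM against 57.7, 59.0 and 67.8 CPM. Untreated libraries were close to each other for Capg, and every treated library was more than 2 times as high as any of them. None of the 16 was called by edgeR against cells that were only irradiated (3 at an unadjusted p under 0.05, 0 by DESeq2 and 0 by limma voom), where S100a4 stood at 95.7, 139 and 165 CPM.

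Lipid genes moved in both directions. Of 14 tested, 3 were higher and 4 lower (4.22% and 4.7% of all genes tested were), with a median of -0.34. Dgat2, which makes triglyceride from diacylglycerol, had 94.6, 16.6 and 35.8 CPM in irradiated and injected cells, against 1.52, 0 and 0 CPM in untreated cells. Its ratio of counts was 95.7 (95% exact interval 16.8 to 3811), and it was also above cells that were only irradiated (log2 change 2.73 ± 0.73 SE, adjusted p = 0.0487). Dgat1, the other enzyme of that step, had 35.5, 42.9 and 138 CPM against 19.8, 18.3 and 26.6 CPM, and its adjusted p without treated replicate 3 was 0.224. Among the lower members, Hmgcs1, an early enzyme of the mevalonate pathway, had 35.5, 27.7 and 11.5 CPM against 72.9, 70.2 and 52.0 CPM, with an adjusted p of 0.0639 without treated replicate 3. Without treated replicate 1 or 3 the list had 2 higher and 2 lower members.

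Of 14 genes of early haematopoietic progenitors in the table, 9 were tested, 7 of them were called lower (4.7% of all genes tested were), and all 9 log2 changes were below 0, with a median of -1.43. Hoxa7 (chromosome 6, 52215623 to 52218573, GRCm38.p6), a homeobox factor of progenitors, had 5.07, 18 and 12.9 CPM in irradiated and injected cells, against 76.0, 218 and 92.0 CPM in untreated cells (log2 change -3.35 ± 0.40 SE, adjusted p = 2.26e-05). Bcl11a, a repressor needed by lymphoid progenitors, had 6.76, 6.93 and 2.87 CPM against 33.4, 21.1 and 55.7 CPM. For both genes the cells that were only irradiated stood at the level of the irradiated and injected ones, with 14.6, 11.7 and 17.8 CPM of Hoxa7. Lyl1, a basic helix-loop-helix factor of early progenitors, had 57.4, 66.5 and 35.1 CPM against 134, 87.1 and 161 CPM. Erg, an ETS factor of stem cells, had 16.9, 33.2 and 17.2 CPM against 59.3, 45.0 and 76.2 CPM, and its call was lost without treated replicate 3 or untreated replicate 3 (highest adjusted p 0.066). The list kept 3 lower members without treated replicate 3 and 4 without untreated replicate 2 or 3. None of the 9 was called by edgeR against cells that were only irradiated (2 at an unadjusted p under 0.05, 0 by DESeq2 and 1 by limma voom).

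**Figure D2:**
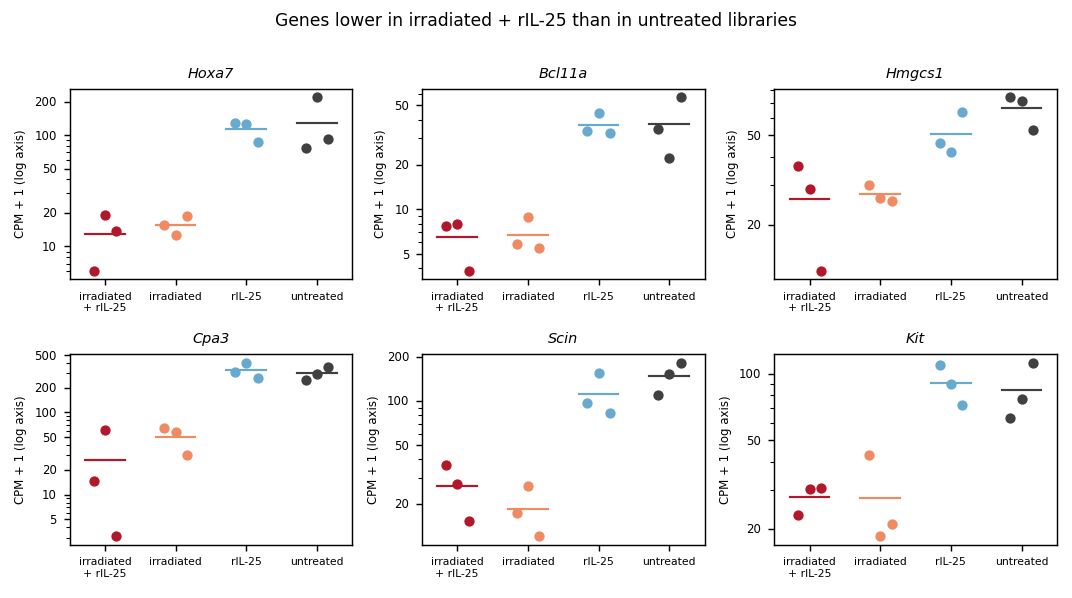
CPM plus 1 (log axis) of 6 genes in each library of the 4 groups; points are libraries and bars are group means. For each gene the 3 irradiated and injected libraries lie below the 3 untreated ones, and so do the 3 libraries that were only irradiated.

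Other large falls were found among the remaining genes. Cpa3, a carboxypeptidase of mast cells that early T and ILC progenitors also express, had 13.5, 61.0 and 2.15 CPM in irradiated and injected cells, against 249, 291 and 353 CPM in untreated cells (log2 change -3.70 ± 0.50 SE, adjusted p = 9.09e-05). It was the one tested gene of 17 mast cell, basophil and eosinophil markers. Scin, an actin-severing protein, had 35.5, 26.3 and 14.3 CPM against 108, 152 and 181 CPM. Tbc1d4, a Rab GTPase-activating protein of glucose transport, had 3.38, 4.16 and 2.87 CPM against 22.8, 29.5 and 32.7 CPM. All 3 genes were separated between the groups, as for 328 of the 352 genes called lower and 13.5% of all genes tested. Their calls stayed with each library left out. Gpr174, a lysophosphatidylserine receptor, had 0, 2.77 and 0 CPM against 12.2, 28.1 and 16.9 CPM, a count ratio of 0.0386 (95% exact interval 0.00453 to 0.148). Angpt1, the ligand of TIE2, had 5.07, 5.54 and 0.717 CPM against 13.7, 35.1 and 39.9 CPM.

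Other large rises were found for genes with few or no counts in untreated cells. Asb2 (chromosome 12, 103321142 to 103356001, GRCm38.p6), a substrate receptor of ubiquitin ligases, had 82.8, 36 and 118 CPM in irradiated and injected cells and no count in untreated cells, at least 64.6-fold higher. Adam19, a membrane metalloprotease, had 27.0, 11.1 and 19.4 CPM against none, at least 13.8-fold higher. Pdlim4, an actin-associated PDZ and LIM protein, had 157, 51.3 and 151 CPM against 4.56, 0 and 2.42 CPM (log2 change 5.63 ± 0.59 SE, adjusted p = 1.11e-05). Replicate 2 was the lowest treated library for these 3 genes, yet above every untreated library. Gimap3, a GTPase of lymphocyte survival, had 84.5, 15.2 and 38.7 CPM against 0, 0 and 3.63 CPM. It was the one called member of 6 tested GIMAP genes (4.22% of all genes tested were called higher).

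A joint list of p53 targets and DNA damage genes did not move as a block 3 days after exposure. It held DNA damage genes such as Atr, so its counts do not describe p53 targets alone. Of 19 tested, 4 were higher and 4 lower (4.22% and 4.7% of all genes tested were), with a median of 0.14. Bax, which opens the outer mitochondrial membrane in apoptosis, had 272, 251 and 272 CPM in irradiated and injected cells, against 160, 111 and 151 CPM in untreated cells (log2 change 0.91 ± 0.22 SE, adjusted p = 0.0111, 0.0683 without untreated replicate 2). Cdkn1a, the cell cycle inhibitor p21, had 40.5, 54.0 and 64.5 CPM against 60.8, 30.9 and 41.1 CPM, with overlapping groups and an adjusted p of 0.57. Mdm2, the p53 ubiquitin ligase, had a log2 change of -0.19 with an adjusted p of 0.686. Atr, a checkpoint kinase, had 15.2, 12.5 and 2.87 CPM against 25.8, 23.9 and 27.8 CPM, and its call was lost without treated replicate 3 or any 1 untreated library (highest adjusted p 0.222). Without untreated replicate 2 no member of the list was called in either direction.

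In the BCL2 family 3 of 12 tested genes were higher, where 4.22% of all genes tested were, with a median of 0.03 that became -0.02 with library totals. Bcl2l1, which encodes the survival factor BCL-XL, had 62.5, 67.9 and 111 CPM in irradiated and injected cells, against 22.8, 33.7 and 42.3 CPM in untreated cells, with an adjusted p of 0.0987 without treated replicate 3. Bak1 and Bid, which promote apoptosis, had log2 changes of 0.997 and 1.01, and each lost its call without treated replicate 3 or any 1 untreated library (highest adjusted p 0.277 and 0.302), and Bak1 also with the GC offset (0.0574). Without any 1 untreated library 1 member was called, and without treated replicate 3 none was. None of 25 tested DNA replication genes was called by edgeR, with 1 at an unadjusted p under 0.05, 0 by DESeq2 and limma voom, and a median of -0.01. Of 24 tested mitosis genes 2 were higher, Cdc20 and Ccnb2 (4.22% of all genes tested were). Cdc20, the activator of the anaphase-promoting complex, had 301, 326 and 380 CPM against 208, 166 and 181 CPM (log2 change 0.86 ± 0.18 SE, adjusted p = 0.00452). Ccnb2, a mitotic cyclin, had 400, 420 and 543 CPM against 307, 267 and 272 CPM. The Ccnb2 call was lost without treated replicate 3 or untreated replicate 2 or 3 (highest adjusted p 0.123). Mki67, the proliferation antigen, had 309, 240 and 191 CPM against 246, 271 and 287 CPM, with overlapping groups and an adjusted p of 0.759.

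Interferon-stimulated genes gave 2 higher members of 31 tested, a share of the list not far from the 4.22% of all genes, with a median of 0.21. Ifi27l2a had 122, 116 and 161 CPM in irradiated and injected cells, against 41.0, 26.7 and 19.4 CPM in untreated cells (log2 change 2.22 ± 0.37 SE, adjusted p = 0.000662). Samhd1, a dNTP-degrading enzyme, had 52.4, 34.6 and 65.2 CPM against 7.60, 2.81 and 20.6 CPM, and lost its call without treated replicate 3 or untreated replicate 2 (highest adjusted p 0.0647). Without treated replicate 2, 4 members of the list were higher. Immediate early genes, which also react to tissue dissociation, gave Junb, Klf2 and Myc higher and Jun lower of 17 tested. Over all genes tested 4.22% were higher and 4.7% lower. The median of the immediate early list was 0.65. Jun had 33.8, 18 and 16.5 CPM against 60.8, 74.5 and 47.2 CPM, whereas Myc, a driver of growth, had 356, 244 and 332 CPM against 173, 153 and 183 CPM. The call was lost for Jun without treated replicate 3 or untreated replicate 2, for Junb without treated replicate 1 or 3 or untreated replicate 1 or 3, for Klf2 without treated replicate 1 or untreated replicate 1 or 2, and for Myc without treated replicate 1 or 3 or untreated replicate 2 (highest adjusted p 0.109, 0.115, 0.125 and 0.0683).

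**Figure D3:**
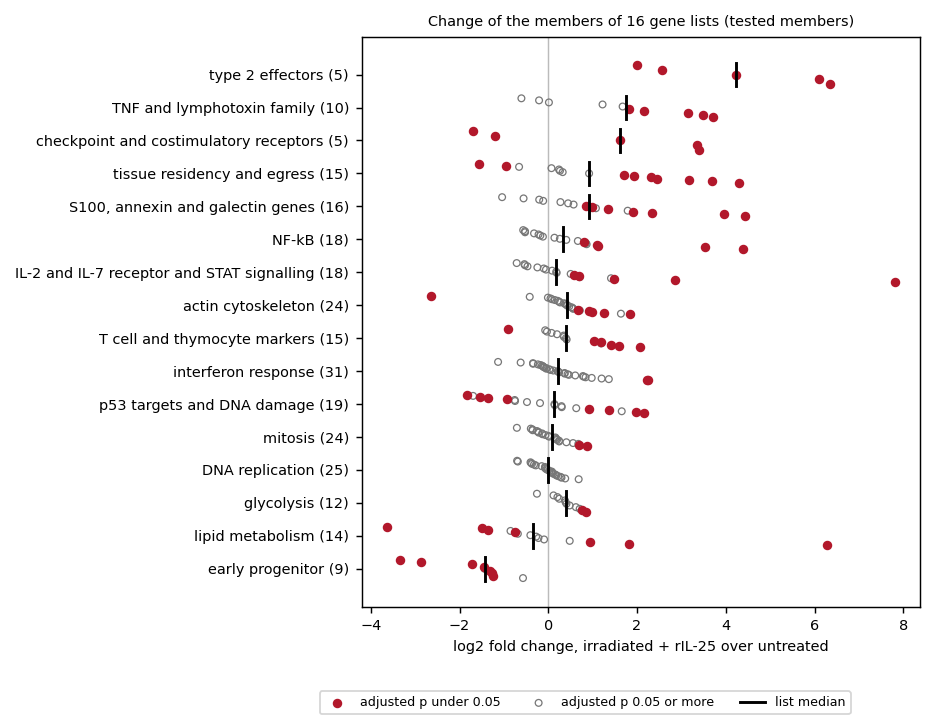
Log2 fold change (irradiated and injected over untreated) of each tested member of 16 gene lists, with the number tested in brackets; filled points passed an adjusted p under 0.05 and black bars are list medians. The 5 tested type 2 effectors have a median of 4.23. It does not support a change of the list, since Il13 and Arg1 passed the count filter through other groups. The 9 tested early progenitor genes have a median of -1.43, while DNA replication genes centre on -0.01. The point of Il2rb at 7.81 is a fitted value for a gene with no count in untreated cells.

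Amino acid synthesis genes of the ATF4 response gave 3 higher members of 13 tested (4.22% of all genes tested were higher). Psph, the last enzyme of serine synthesis, had 108, 88.7 and 131 CPM in irradiated and injected cells, against 51.7, 46.4 and 55.7 CPM in untreated cells (log2 change 1.10 ± 0.23 SE, adjusted p = 0.00364). Mthfd2, a mitochondrial one-carbon enzyme, had 225, 188 and 201 CPM against 105, 91.3 and 128 CPM, with an adjusted p of 0.0501 without untreated replicate 2, when 1 member was called. Of 12 tested glycolysis genes, Aldoa and Ldha were higher (4.22% of all genes tested were). A log2 change above 0 was found for 11 of the 12, and for 3673 of all 7482 genes. Ldha, lactate dehydrogenase A, had 1316, 1148 and 1713 CPM against 1019, 573 and 861 CPM, and both calls were lost without treated replicate 3 or untreated replicate 2 or 3, when no glycolysis gene was called.

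In the actin list 5 of 24 tested members were higher and 1 lower (4.22% and 4.7% of all genes tested were), with a median of 0.42. Pfn1, the actin monomer binding protein profilin, had 743, 272 and 281 CPM in irradiated and injected cells, against 144, 78.7 and 133 CPM in untreated cells (log2 change 1.85 ± 0.39 SE, adjusted p = 0.0047). Actb itself had 19401, 8890 and 5888 CPM against 5598, 5749 and 5936 CPM. The excess lay in replicates 1 and 2, replicate 3 was inside the untreated range, and the call was lost without treated replicate 1 or any 1 untreated library (highest adjusted p 0.316). Cotl1 and Myl6, which bind actin filaments and form part of myosin, were also above cells that were only irradiated, by log2 changes of 0.97 and 1.16 (adjusted p = 0.024 and 0.026). Cotl1 had 333, 313 and 506 CPM against 205, 160 and 252 CPM in untreated cells. Without untreated replicate 2 or treated replicate 3, 2 members were called higher. Actb and Pfn1 have processed copies in the genome, so their counts are uncertain.

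Counts for housekeeping complexes are set against 4.22% higher and 4.7% lower among all genes tested, and with so few calls nothing is read from them about the complexes. Of 40 tested complex I genes 1 was higher, and of 29 in complexes II to IV 1 was higher and 1 lower, with medians of 0.17 and 0.09. Ndufb8, the complex I member, had 482, 418 and 483 CPM in irradiated and injected cells, against 299, 323 and 306 CPM in untreated cells (log2 change 0.58 ± 0.17 SE, adjusted p = 0.0321), lost without any 1 library other than treated replicate 2 (highest adjusted p 0.125). Among 74 tested cytosolic ribosomal protein genes, 5 were lower, with a median of -0.02, and 13 were called lower and 2 higher without treated replicate 2. Of 37 proteasome genes 1 was higher, and of 64 mitochondrial ribosomal genes 3 were higher and 1 lower. Of 49 chaperones 2 were higher and 1 lower, with opposite calls for HSP90 paralogs. Hsp90ab1 had 3773, 2656 and 3497 CPM against 1987, 1462 and 1874 CPM (log2 change 0.90 ± 0.20 SE, adjusted p = 0.00659). Hsp90aa1 had 20.3, 41.6 and 22.2 CPM against 48.6, 70.2 and 54.4 CPM (log2 change -1.06 ± 0.28 SE, adjusted p = 0.0205), lost without treated replicate 1 or 3 or untreated replicate 2.

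By CPM, the largest rises after Actb and Hsp90ab1 included class I antigen presentation genes, and the largest fall was Crip1. H2-D1 had 1397, 1302 and 1875 CPM in irradiated and injected cells, against 877, 767 and 841 CPM in untreated cells, and H2-K1 had 1877, 1988 and 2484 CPM against 1293, 964 and 1397 CPM. These paralogs are so alike that reads may have been shared between them. Laptm5, a lysosomal protein of haematopoietic cells, had 1418, 882 and 1162 CPM against 510, 591 and 534 CPM (log2 change 1.08 ± 0.21 SE, adjusted p = 0.00283). Crip1, a small LIM protein, had 3288, 9980 and 4170 CPM against 13343, 13293 and 13240 CPM. Its untreated values hardly varied, treated replicate 2 was between them and the other treated libraries, and the adjusted p without treated replicate 3 was 0.0747. Plac8 followed the same order, with 248, 906 and 325 CPM against 1092, 1225 and 1815 CPM. Gpx1, a peroxide-reducing selenoenzyme, had 992, 995 and 717 CPM against 1483, 1573 and 1630 CPM. Without treated replicate 3 the calls of Plac8, Gpx1, H2-D1 and H2-K1 were lost too, and that of H2-K1 also without untreated replicate 2.

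A small number of genes stood above or below all 3 other groups. 21 of the 316 higher genes were also called higher than in both kinds of cells that received 1 treatment. Besides Il13 and Dgat2, those with the largest margin over the nearest group were Cxcl10, Lgmn, Alyref and Hnrnpl. Cxcl10 (chromosome 5, 92346638 to 92348889, GRCm38.p6), a chemokine for CXCR3-bearing cells, had 16.9, 31.9 and 39.4 CPM in irradiated and injected cells, 1.62, 13.7 and 2.23 CPM in irradiated cells, 0, 1.35 and 1.27 CPM in injected cells and 0, 1.40 and 2.42 CPM in untreated cells. No library of another group reached its lowest treated value. Lgmn, a lysosomal asparaginyl protease, had 27.0, 22.2 and 68.8 CPM against 3.04, 8.43 and 2.42 CPM in untreated cells, with an adjusted p of 0.117 in the weakest fit with 1 library left out, and DESeq2 gave 0.0558. Hnrnpl, a splicing regulator, had 407, 163 and 214 CPM against 79.0, 63.2 and 92.0 CPM in untreated cells (log2 change 1.72 ± 0.30 SE, adjusted p = 0.000843). Alyref, an mRNA export adaptor, had 368, 94.2 and 142 CPM against 48.6, 29.5 and 50.8 CPM.

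56 of the 352 lower genes were also called lower than in both kinds of cells that received 1 treatment. Stag2 (chromosome X, 42149297 to 42277186, GRCm38.p6), a subunit of the cohesin ring, had 16.9, 34.6 and 10.8 CPM in irradiated and injected cells, 71.4, 74.4 and 78.0 CPM in irradiated cells, 113, 79.8 and 111 CPM in injected cells and 77.5, 107 and 76.2 CPM in untreated cells. All 9 other libraries were at least 2 times the highest of the treated ones. Pds5b, which regulates cohesin release, had 16.9, 12.5 and 7.17 CPM against 24.3, 78.7 and 27.8 CPM in untreated cells, with a call lost without treated replicate 3 or untreated replicate 2 (highest adjusted p 0.0985). Rif1, a factor of double-strand break repair and replication timing, had 8.45, 9.70 and 2.15 CPM against 16.7, 37.9 and 33.9 CPM. Srsf1, a splicing activator, had 8.45, 31.9 and 10 CPM against 65.3, 74.5 and 52.0 CPM (log2 change -1.97 ± 0.36 SE, adjusted p = 0.00165). Rpl39 (chromosome X, 37082518 to 37085222, GRCm38.p6), a ribosomal protein, had 106, 244 and 130 CPM against 351, 923 and 390 CPM in untreated cells, where irradiated cells had 1252, 1196 and 1126 CPM. Replicate 2 was the highest treated library for Stag2, Srsf1 and Rpl39. Rpl39 also has processed copies, so its counts are uncertain.

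**Figure D4:**
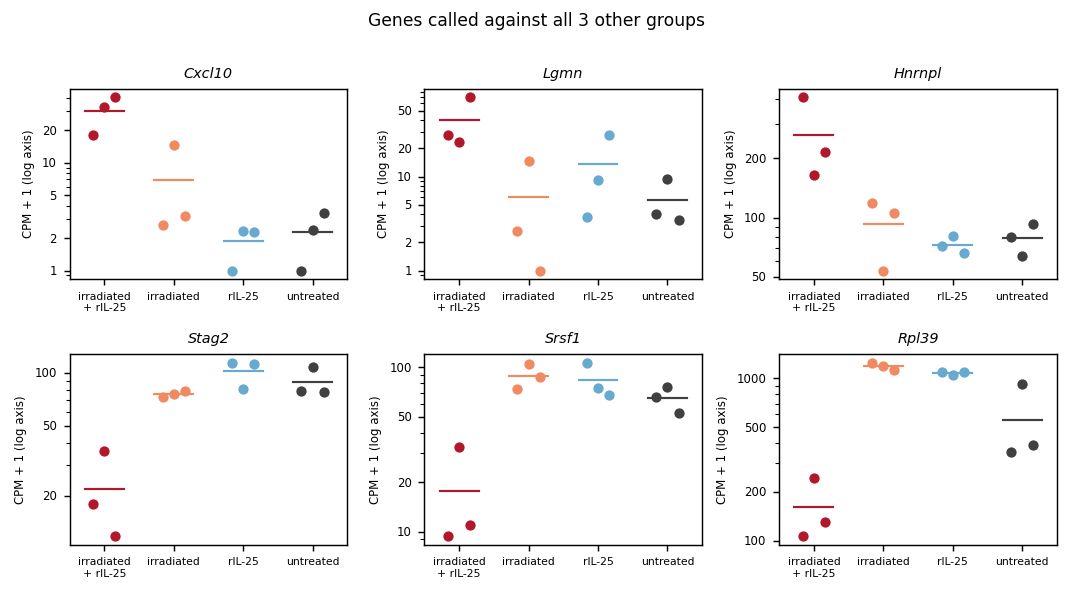
CPM plus 1 (log axis) of 6 genes in each library of the 4 groups; points are libraries and bars are group means. Cxcl10, Lgmn and Hnrnpl have their highest group mean, and Stag2, Srsf1 and Rpl39 their lowest, in irradiated and injected cells.

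Markers of other cells were read in the same libraries. Of 15 tested T cell and thymocyte genes, 5 were higher and 1 lower (4.22% and 4.7% of all genes tested were). The list median was 0.40, and the summed level was 5454 to 5912 CPM in irradiated and injected cells and 4958 to 5873 CPM in untreated cells. The sum held both the higher members and Dntt, the lower one, so it does not show an unchanged level. Cd3d, a chain of the CD3 complex, had 433, 569 and 471 CPM against 129, 112 and 110 CPM (log2 change 2.07 ± 0.18 SE, adjusted p = 9.05e-07). Rag1, the recombinase of receptor genes, had 72.7, 69.3 and 82.4 CPM against 19.8, 11.2 and 42.3 CPM, whereas Dntt, the polymerase that adds bases at V(D)J joints, had 852, 1377 and 1227 CPM against 2370, 2029 and 2061 CPM. Cd4 and Cd8a, which mark thymocytes beyond the double-negative stage, were at 3.58 CPM or less in irradiated and injected libraries and at 9.68 CPM or less in untreated ones. In the NK and ILC1 list Gzma and Ctsw were higher and Nkg7 lower of 4 tested (4.22% and 4.7% of all genes tested were). The summed level of this list was 852 to 1172 CPM against 632 to 726 CPM. Without treated replicate 3 none of the 4 was called. Gzma, a granule protease, had 510, 805 and 918 CPM against 412, 385 and 305 CPM, with a highest adjusted p of 0.0585 when 1 library was left out.

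Myeloid and dendritic cell markers summed to 103 to 174 CPM in irradiated and injected cells and 53.2 to 89.9 CPM in untreated cells. Of 5 tested 1 was called higher, Cd74 (4.22% of all genes tested were). Cd74, the class II invariant chain, had 55.8, 20.8 and 32.3 CPM against 1.52, 1.40 and 1.21 CPM. Its call was lost without any 1 library other than treated replicate 2 (highest adjusted p 0.0949). H2-Aa and H2-Eb1 had log2 changes of 2.49 and 3.59 with adjusted p-values of 0.284 and 0.166. Stromal, epithelial and endothelial markers summed to 145 to 335 CPM against 135 to 201 CPM, and none of 5 tested was called by edgeR (2 at an unadjusted p under 0.05, 1 by DESeq2, 0 by limma voom). ILC3 markers summed to 305 to 375 CPM against 301 to 326 CPM, with 0 of 5 called by edgeR, at an unadjusted p under 0.05, by DESeq2 or by limma voom. The 1 tested B cell marker did not pass. No erythroid marker was analysed here. The part of these cells in the results above was not tested.

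The base composition of genes moved with the direction of the call. The last 500 bases of the transcript had a median GC content of 47.8% in 307 higher genes and 40.6% in 339 lower genes, against 45% in 7208 genes with a value. Median transcript lengths were 2320, 4304 and 3139 bases in the same order. In the quartile of genes with the lowest GC content 43 were higher and 148 lower, and in the quartile with the highest 116 were higher and 50 lower. With an offset for GC content fitted in each library, an alternative chosen after seeing the data, 345 genes of 667 called were higher, and the lowest quartile held 82 higher and 96 lower genes. Of the named genes 11 lost their call under it, among them Il2rg, Thy1, Junb, Bak1, Aldoa and Trp53inp1 (adjusted p = 0.0572, 0.0662, 0.0834, 0.0574, 0.0606 and 0.059). Srsf1, Stag2, Rif1 and Rpl39 stayed called lower.

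**Figure D5:**
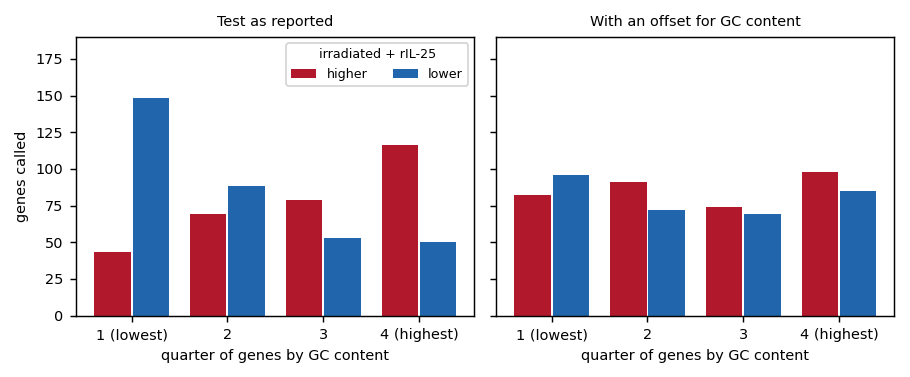
Number of genes called higher (red) and lower (blue) in irradiated and injected cells, by quartile of GC content in the last 500 transcript bases. Without the offset the lowest quartile has 43 higher and 148 lower genes; with it the quartile has 82 and 96.

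The authors' deposited table of this comparison, which gives untreated over irradiated and injected, listed 555 genes with an adjusted p under 0.05. Of these, 306 had in the authors' deposited table a log2 change below 0, which is higher in irradiated and injected cells. The fit here called 499 of them (89.9% of the genes in the authors' deposited table and 74.7% of the 668), 35 were not tested here, and none of the shared genes had the opposite direction.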

How the data were processed

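RNA of sorted thymic cells labelled ILC2 was made into MARS-seq libraries, a 3′ end method, per the labels' protocols. The submitters' processing notes name bcl2fastq, cutadapt, STAR 2.5.2b, HTSeq, DESeq2 and the build mm10. The deposited table holds raw counts per gene for 12 libraries of 4 groups; whether reads or molecules were counted, strand use and the sort gate are not given in the sources used here. The authors' deposited log2 changes and p-values were used only for the concluding comparison. 24 other per-sample columns were not used. Of 9973 entries, 16 have names turned into dates.

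Counts were filtered (filterByExpr, minimum count 10), scaled by TMM and fitted over all 12 libraries with edgeR 4.0.16 (quasi-likelihood test, R 4.3.3), calling genes at a Benjamini-Hochberg adjusted p under 0.05. The procedure was checked on simulated data. CPM use the scaled library sizes; relative to the unscaled totals, 3 counts correspond to 2.21 to 5.11 CPM in irradiated and injected and 3.75 to 4.69 CPM in untreated libraries; exact 95% intervals cover counting error only. Alternatives were RLE scaling, library totals, no filter, a minimum count of 30, a replicate block, the 2 groups alone, DESeq2 1.42.0, limma 3.58.1 voom, leaving out each library and a GC offset.

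Named genes were the 15 largest rises and falls, 8 each way by CPM, 6 each way called against all groups, up to 4 called members per list, and 12 fixed genes. Other names (Csf2, Ccl1, Penk, Tph1, Socs2, Mdm2, Stat5a, Stat5b, Il2ra, Runx1, Rela, Nfkb1, Calca, Cd48, Cd4, Cd8a, Ccr7, H2-Aa, H2-Eb1) were chosen after their values were seen. Comparison and gene lists were chosen with earlier results of these data known. Some results are not reported here.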

Additional observations from a re-analysis of the deposited data

Results flagged for a closer look

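For 7 of the named genes the effect of adding irradiation depended on whether rIL-25 was given, by the interaction term of the edgeR fit over the 4 groups (155 of 7482 genes, 2.07%, were called for it). The term is the change with rIL-25 among irradiated cells minus the change with rIL-25 among cells that were not irradiated. All 7 values were negative, and 128 of the 155 calls were (1.71% of all genes tested). Rpl39 had a value of -3.85 ± 0.43 (SE, log2, adjusted p = 5.64e-05), with 106, 244 and 130 CPM in irradiated and injected cells, 1252, 1196 and 1126 CPM in irradiated cells, 1089, 1043 and 1100 CPM in injected cells and 351, 923 and 390 CPM in untreated cells. The splicing activator Srsf1 had -2.80 ± 0.47 (adjusted p = 0.00294) and the ribosomal gene Rps24 had -1.85 ± 0.39 (adjusted p = 0.0148). The cohesin genes Stag2 and Pds5b had -2.13 ± 0.43 and -2.58 ± 0.58 (adjusted p = 0.012 and 0.0199). P2ry10, a lysophospholipid receptor, had -2.67 ± 0.62 and the zinc finger gene Zfp644 had -2.43 ± 0.64 (adjusted p = 0.0226 and 0.0475). These genes were selected for being below all 3 other groups, or for their size, so the terms describe them and are no separate support. The count of interaction calls was 29 to 347 with 1 library left out.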

How the results depend on the processing

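Of 142 named genes called, 77 stayed called in all 6 fits that left out 1 library. The 668 calls became 671 with RLE scaling, 696 with library totals, 722 without a filter, 457 at a minimum count of 30, 498 with the 2 groups alone, 606 with DESeq2, 692 with limma voom and 667 with the GC offset, and 271 to 896 with 1 library left out; 577 of the 668 were also called by DESeq2. Against irradiated cells 188 genes were called (25.5% higher), 125 with the 2 groups alone, 202 with library totals (43.6% higher) and 42 to 358 with 1 library left out. Against injected cells 1142 were called (42.6% higher, 53.3% with the GC offset), and 460 to 1318 with 1 library left out. The interaction had 155 calls (17.4% higher), 417 with limma voom, 178 with library totals (34.3% higher), 143 with the GC offset (28.7% higher) and 29 to 347 with 1 library left out. With 1 library left out the log2 change of Il17rb was -0.18 to 0.11, above 0 without replicate 2 of the irradiated and injected cells (adjusted p 0.777). That of Mki67 was -0.32 to 0.033, above 0 without replicate 3 (adjusted p 0.969). Neither gene was called. The causes were not tested. Replicate numbers are shared between groups. Same-numbered libraries of the irradiated and injected and the untreated group correlated at -0.049, 0.020 and -0.036 in their deviations from the group means. Differently numbered ones ranged from -0.081 to 0.129. With only irradiated cells the same-numbered values were 0.011, 0.078 and 0.104, and with only injected cells -0.036, 0.050 and 0.099. With 3 libraries a group, such values cannot decide whether the numbers pair samples. A fit with the replicate number as a block called 679 genes, 624 of them shared. Against irradiated cells it called 212, where 188 were called without the block. Depth limits genes below about 10 counts a library, among them Il5, Areg and Il4.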
